A study of Mus musculus with 9 samples.

Results

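Wnt signaling genes were examined on the arrays of senescence-prone mice given TFQA, senescence-prone mice given water and their normal-aging controls. The set comprised every gene whose symbol is Wnt, Fzd, Dkk or Sfrp followed by a number, together with Lrp5, Lrp6, Axin1, Axin2, Lef1 and Tcf7l2, and each gene was read from its transcript with the highest mean. In all, 43 genes of the 19505 named genes in the table were measured, comprising 19 Wnt ligands, 10 Frizzled receptors, 2 co-receptors, 4 Dickkopf proteins, 4 secreted Frizzled-related proteins, 2 Axin scaffolds and 2 DNA-binding partners of β-catenin. Ctnnb1, the gene of β-catenin itself, was not analysed here.

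Clariom S Mouse arrays, 9 in all and 3 per group, measured the RNA. The groups were SAMP8 mice given TFQA (SAMP8 TFQA), SAMP8 mice given water (SAMP8 water) and SAMR1 mice given water (SAMR1 water). All of them were males. The age given is 6 months, and no age at dissection, after the 37 days of treatment, is stated. SAMP8 is an inbred strain with accelerated senescence, and SAMR1 is the related strain used as its normal-aging control, so that the strain comparison holds every inherited difference between them. TFQA, a synthetic 3,4,5-tri-feruloylquinic acid, was given by oral gavage at 1 mg/kg once daily for 37 days. Hippocampus is the tissue in the study's text, but the labels read brain or neural stem cells, and the genotype label of the SAMP8 arrays reads SAMRP 8. No source used here states that the 3 arrays of a group came from separate mice, so the p-values cover only the spread among these arrays, some or all of it possibly technical.

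Wnt proteins are secreted, lipid-modified signals. In the β-catenin branch of the pathway, a Wnt joins a Frizzled receptor to Lrp5 or Lrp6, which pulls Axin away from the complex that marks β-catenin for degradation, and β-catenin then acts in the nucleus with DNA-binding proteins of the TCF/LEF family. Some Dickkopf proteins, though not all, can block the co-receptors, and secreted Frizzled-related proteins hold Wnts outside the cell. In the hippocampus the pathway is known for its role in adult neurogenesis and at synapses, and Tcf7l2 and Lef1 are known as genes expressed strongly in the thalamus and habenula of the adult brain.

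Because Tcf7l2 and Lef1 varied together from array to array, and because Fzd7 and Dkk2 were among the few members past the unadjusted threshold, the promoter windows of these 4 genes are given. Each window runs from 250 bases before to 50 bases after the start site annotated by RefSeq on GRCm38.p6, and all 4 lie on the plus strand. Capitals mark CTTTGA or CTTTGT on either strand, the core letters of a TCF/LEF motif. They are Fzd7 (chr1:59481897-59482196), Dkk2 (chr3:132085042-132085341), Lef1 (chr3:131110047-131110346) and Tcf7l2 (chr19:55741560-55741859).
Fzd7: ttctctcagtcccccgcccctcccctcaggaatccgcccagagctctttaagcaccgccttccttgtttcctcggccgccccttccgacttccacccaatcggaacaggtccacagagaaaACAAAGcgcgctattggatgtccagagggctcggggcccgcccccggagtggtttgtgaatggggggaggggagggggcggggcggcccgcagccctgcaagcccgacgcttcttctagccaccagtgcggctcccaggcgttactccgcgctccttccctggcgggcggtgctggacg
Dkk2: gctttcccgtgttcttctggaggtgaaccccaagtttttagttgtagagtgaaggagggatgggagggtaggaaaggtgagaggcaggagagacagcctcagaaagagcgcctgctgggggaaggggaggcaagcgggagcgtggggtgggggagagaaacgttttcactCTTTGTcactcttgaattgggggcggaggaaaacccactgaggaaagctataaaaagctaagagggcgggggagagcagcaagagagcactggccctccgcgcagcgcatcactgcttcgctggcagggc
Lef1: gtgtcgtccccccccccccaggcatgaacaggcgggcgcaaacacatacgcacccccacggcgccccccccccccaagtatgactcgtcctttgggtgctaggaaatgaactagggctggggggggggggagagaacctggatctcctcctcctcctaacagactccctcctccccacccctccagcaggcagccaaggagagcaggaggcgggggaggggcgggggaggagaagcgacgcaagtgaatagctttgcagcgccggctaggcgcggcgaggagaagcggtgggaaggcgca
Tcf7l2: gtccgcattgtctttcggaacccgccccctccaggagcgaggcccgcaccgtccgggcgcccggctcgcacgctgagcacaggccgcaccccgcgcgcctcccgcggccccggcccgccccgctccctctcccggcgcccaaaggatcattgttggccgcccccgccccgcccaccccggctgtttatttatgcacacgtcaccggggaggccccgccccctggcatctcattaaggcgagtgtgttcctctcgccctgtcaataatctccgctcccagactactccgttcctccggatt
The windows of Fzd7 and Dkk2 hold 1 copy of CTTTGT each, on the minus strand in Fzd7 and on the plus strand in Dkk2. Those of Lef1 and Tcf7l2 hold neither word. Neither does the window of Fzd5, also past the unadjusted threshold and not printed, and no windows were at hand for Lrp5 and Wnt8a. Each gene was read from 1 window, the one nearest its 5' end, out of 4 for Lef1 and 2 for Tcf7l2. Among the 28 members with a window in the table, 3 held CTTTGA and 6 held CTTTGT. This is 10.7% and 21.4% of them, against 16.0% and 18.7% of all 32851 windows, which count every window of a gene. Some start sites lay far from the gene's 5' end, by 17550 bases in Wnt6 and -25451 in Wnt9b. A match of letters is no binding site, and nothing about the factors follows from it.

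The labelled tissue was checked against its markers. Transcripts of hippocampal pyramidal and granule cells lay between percentiles 43 and 98 of the table by mean level. Those of neocortex lay between 44 and 93, and those of striatum between 38 and 95. The 11 transcripts of neural stem cells and newborn neurons lay between 15 and 90, with a median of 62 and 3 among the dimmest 40%. Markers of mature cell types were high as well, with median percentiles of 98 for neurons, 91 for astrocytes and 79 for oligodendrocytes. The median for microglia was 61. Such levels are those of mixed mature brain tissue rather than of neural stem cells alone. They do not tell hippocampus from whole brain. Markers of neighboring regions differed between arrays of 1 group. A marker score, the mean log2 deviation of the listed genes from their own means, reached 3.06 for striatum in SAMP8 TFQA replicate 2, against -0.76 to 0.58 in the other arrays. The score of meningeal fibroblasts was 0.13 to 0.64 in SAMP8 water arrays and -0.71 to -0.48 in SAMR1 water arrays. The arrays otherwise correlated at 0.9876 to 0.9934. In such dissected tissue, fewer cells of a type and less RNA per cell cannot be told apart.

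SAMP8 TFQA vs. SAMP8 water asked which members moved with the treatment. No member passed an adjusted p of 0.05 in limma, and neither did any of the 22206 transcripts (0%). At the study's threshold (fold change above 1.1, p below 0.05 before adjustment) the co-receptor gene Lrp5 was higher and the antagonist gene Dkk2 was lower. These are 2 of 43 members, or 4.65%, against 7.12% of all transcripts (3.36% higher and 3.76% lower). The 3 arrays of each group did not overlap for 6 members, which is 14% of them, against 11.8% of all transcripts. Of these 6, 4 were higher and 2 lower after TFQA, against 5.89% and 5.91% of all transcripts. Of the members, 27 had a higher and 16 a lower mean after TFQA, and their median log2 fold change was 0.03, against 0.01 over all transcripts. The smallest adjusted p among them was 0.561.

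**Figure D1:**
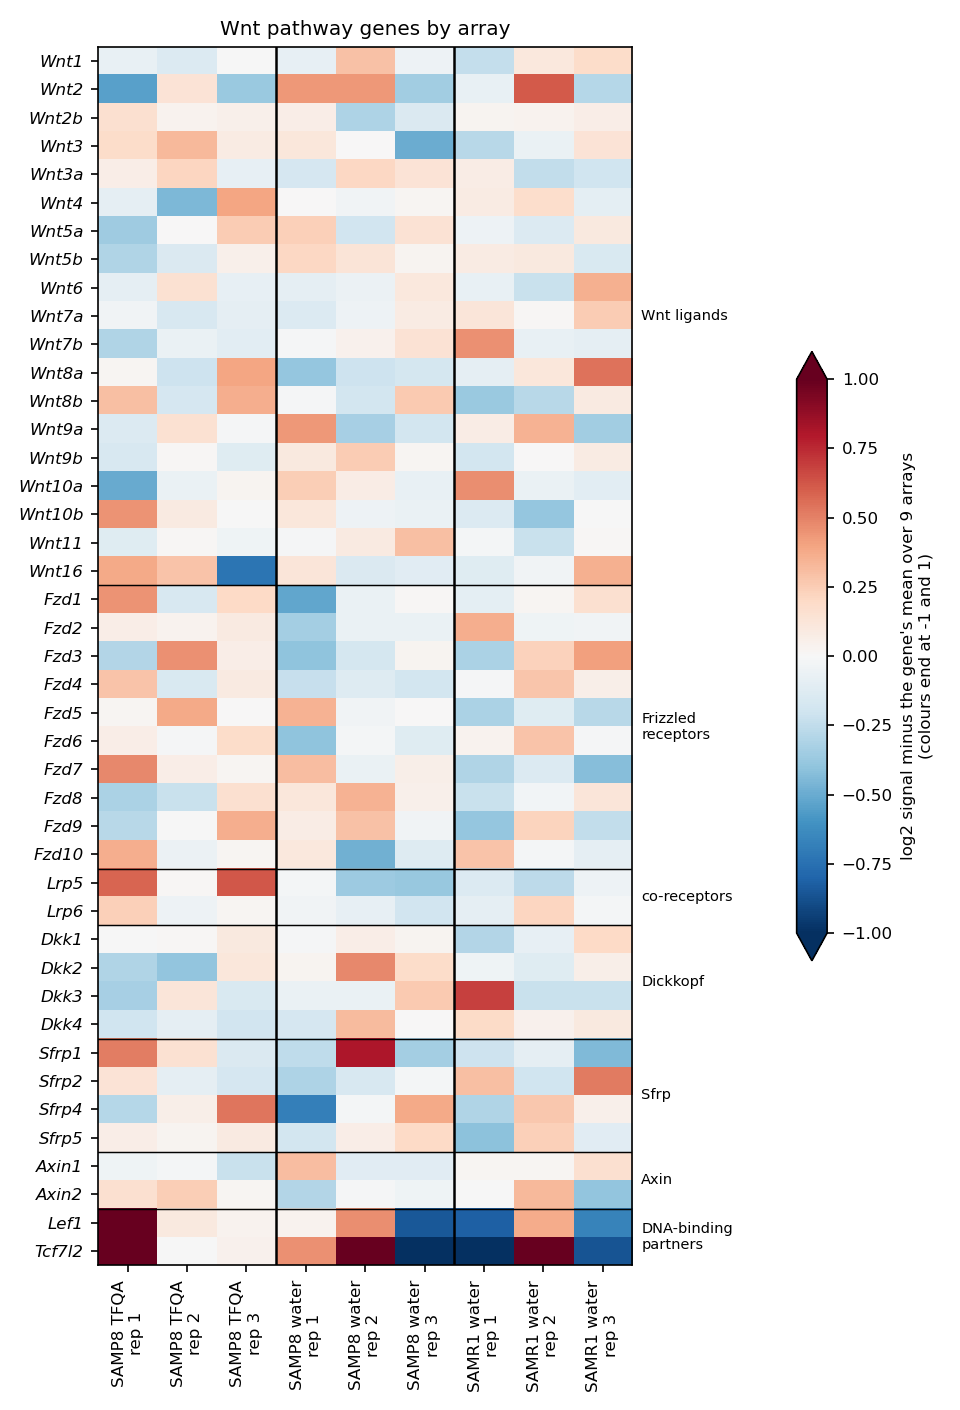
Log2 signal of the 43 Wnt pathway genes (rows, ordered by role) on the 9 arrays (columns, by group and replicate), shown as the deviation from each gene's mean, with colors ending at -1 and 1. The rows of Lef1 and Tcf7l2 carry the strongest colors, which vary within each group, while most other rows stay pale in all 3 groups.

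Lrp5 (chr19:3584825-3686585 on GRCm38.p6, the build of all gene positions) encodes a co-receptor that binds Wnt beside a Frizzled protein. Its log2 signal was 6.80, 6.23 and 6.84 in the SAMP8 TFQA arrays, 6.20, 5.86 and 5.84 in the SAMP8 water arrays and 6.08, 5.96 and 6.17 in the SAMR1 water arrays. Each TFQA array lay above all 6 water arrays, although replicate 2 of the TFQA group stood only just above the highest of them. The log2 fold change after TFQA was 0.66 ± 0.19 (SE), a fold change of 1.58, with an unadjusted p of 0.00492 and an adjusted p of 0.561 in limma. It remained past the study's threshold in 9 of the 9 fits that left out 1 array, at 0.55 to 0.85, and was 0.85 without TFQA replicate 2, the array of high striatal score. Without the 3 arrays of highest thalamus and habenula score it was 0.52, with an unadjusted p of 0.0698. Lrp6, the second co-receptor, measured 10.06, 9.77 and 9.84 in SAMP8 TFQA arrays, against 9.79, 9.74 and 9.63 in SAMP8 water arrays. These groups overlapped, and the log2 fold change of Lrp6 was 0.17 ± 0.15 (SE), with an interval of -0.17 to 0.51.

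Among the Frizzled genes, which encode the receptors, 8 of 10 had a higher mean after TFQA, and 0 of the 10 passed the study's threshold. Their median log2 fold change was 0.24, against 0.01 over all transcripts. In the same comparison 9 of 10 markers of hippocampal pyramidal and granule cells were lower (median log2 fold change -0.41, 2 past the threshold), with scores of -0.46 to -0.03 in SAMP8 TFQA arrays and -0.01 to 0.42 in SAMP8 water arrays. The striatal markers were higher in 10 of 10, with a median of 1.11. Their score was 3.06 in SAMP8 TFQA replicate 2 and -0.47 and -0.39 in replicates 1 and 3. In SAMP8 water arrays it was -0.76 to -0.21. Of the 43 members, only Fzd3 correlated with the striatum score at an unadjusted exact permutation p under 0.05. Its Pearson's r over the 9 arrays was 0.66 (p = 0.0161, or 0.826 after Benjamini-Hochberg adjustment). Spearman's rho was 0.7, and without the 2 arrays farthest from the median score r was 0.422. The hippocampal list was not set against the members in this way. The part of either tissue in the members' values was not tested. Fzd1 had the smallest p of the class in limma. It measured 8.00, 7.39 and 7.75 in SAMP8 TFQA arrays, against 7.03, 7.48 and 7.56 in SAMP8 water arrays. The groups overlapped, and the log2 fold change of Fzd1 was 0.36 ± 0.20 (SE), with an unadjusted p of 0.0967. For Fzd2 and Fzd6 the groups did not overlap. Fzd6, a receptor known mainly from planar cell polarity, measured 6.97, 6.89 and 7.09 in SAMP8 TFQA arrays, against 6.50, 6.88 and 6.78 in SAMP8 water arrays, so that the nearest arrays differed by little, and its log2 fold change was 0.26 ± 0.16 (SE). Fzd8 went the other way, with a log2 fold change of -0.30 ± 0.18 (SE) and an unadjusted p of 0.117.

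The ligands showed no common direction after TFQA. Of the 19 Wnt genes 9 had a higher and 10 a lower mean, 0 passed the study's threshold, and their median log2 fold change was -0.04. The smallest p belonged to Wnt3, at 4.22, 4.36 and 4.12 in SAMP8 TFQA arrays, against 4.15, 4.04 and 3.54 in SAMP8 water arrays, groups that overlapped. Its log2 fold change was 0.32 ± 0.19 (SE). Wnt5b, a ligand of the β-catenin-independent branch, followed with -0.25 ± 0.16 (SE). Only Wnt7b and Wnt9b had groups that did not overlap, both of them with every SAMP8 TFQA array below every SAMP8 water array. Wnt7b, which with Wnt7a is known for its part in brain vessel growth and the blood-brain barrier, measured 7.07, 7.31 and 7.27 in SAMP8 TFQA arrays, against 7.36, 7.42 and 7.52 in SAMP8 water arrays. Fzd2, Fzd6, Wnt7b, Wnt9b and other members named for groups that did not overlap were chosen after their values were seen.

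Of the 8 Dickkopf and secreted Frizzled-related genes, Dkk2 was the only one past the study's threshold. Dickkopf 2 (gene at chr3:132085266-132180304) binds Lrp5 and Lrp6. Its log2 signal was 4.06, 3.97 and 4.48 in SAMP8 TFQA arrays, 4.39, 4.84 and 4.55 in SAMP8 water arrays and 4.32, 4.24 and 4.42 in SAMR1 water arrays. TFQA replicate 3 lay above the lowest SAMP8 water array, so the groups overlapped. The log2 fold change of Dkk2 was -0.42 ± 0.18 (SE), with an unadjusted p of 0.0373 and an adjusted p of 0.676 in limma. It is among the 23 members whose transcripts lie in the dimmest 40% of the table. The unadjusted call was lost in 4 of the 9 fits without 1 array. The lowest of these values was -0.44 without SAMP8 water replicate 3, followed by -0.37 and -0.32 without TFQA replicates 1 and 2 and -0.30 without SAMP8 water replicate 2. Without the 3 arrays of highest thalamus and habenula score it was -0.24. Dkk1, Dkk3 and Dkk4 had log2 fold changes of 0.01, -0.17 and -0.21. All 4 secreted Frizzled-related genes had higher means after TFQA, at log2 fold changes of 0.03 to 0.21 (0.21 for Sfrp4 and 0.12 for Sfrp2), and 0 of them passed the study's threshold.

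Axin2 (chr11:108917828-108950783) is the usual transcriptional readout of β-catenin signaling, since the pathway itself induces it. Its log2 signal was 8.16, 8.25 and 8.02 in SAMP8 TFQA arrays, 7.71, 7.99 and 7.96 in SAMP8 water arrays and 8.00, 8.33 and 7.61 in SAMR1 water arrays. Every TFQA array lay above every SAMP8 water array, by 0.03 at the nearest pair, whereas the SAMR1 arrays spanned both groups. The log2 fold change after TFQA was 0.26 ± 0.19 (SE), with an unadjusted p of 0.203, an adjusted p of 0.799 in limma and an interval of -0.16 to 0.67. Axin1, the constitutive scaffold, had a log2 fold change of -0.12 ± 0.16 (SE).

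**Figure D2:**
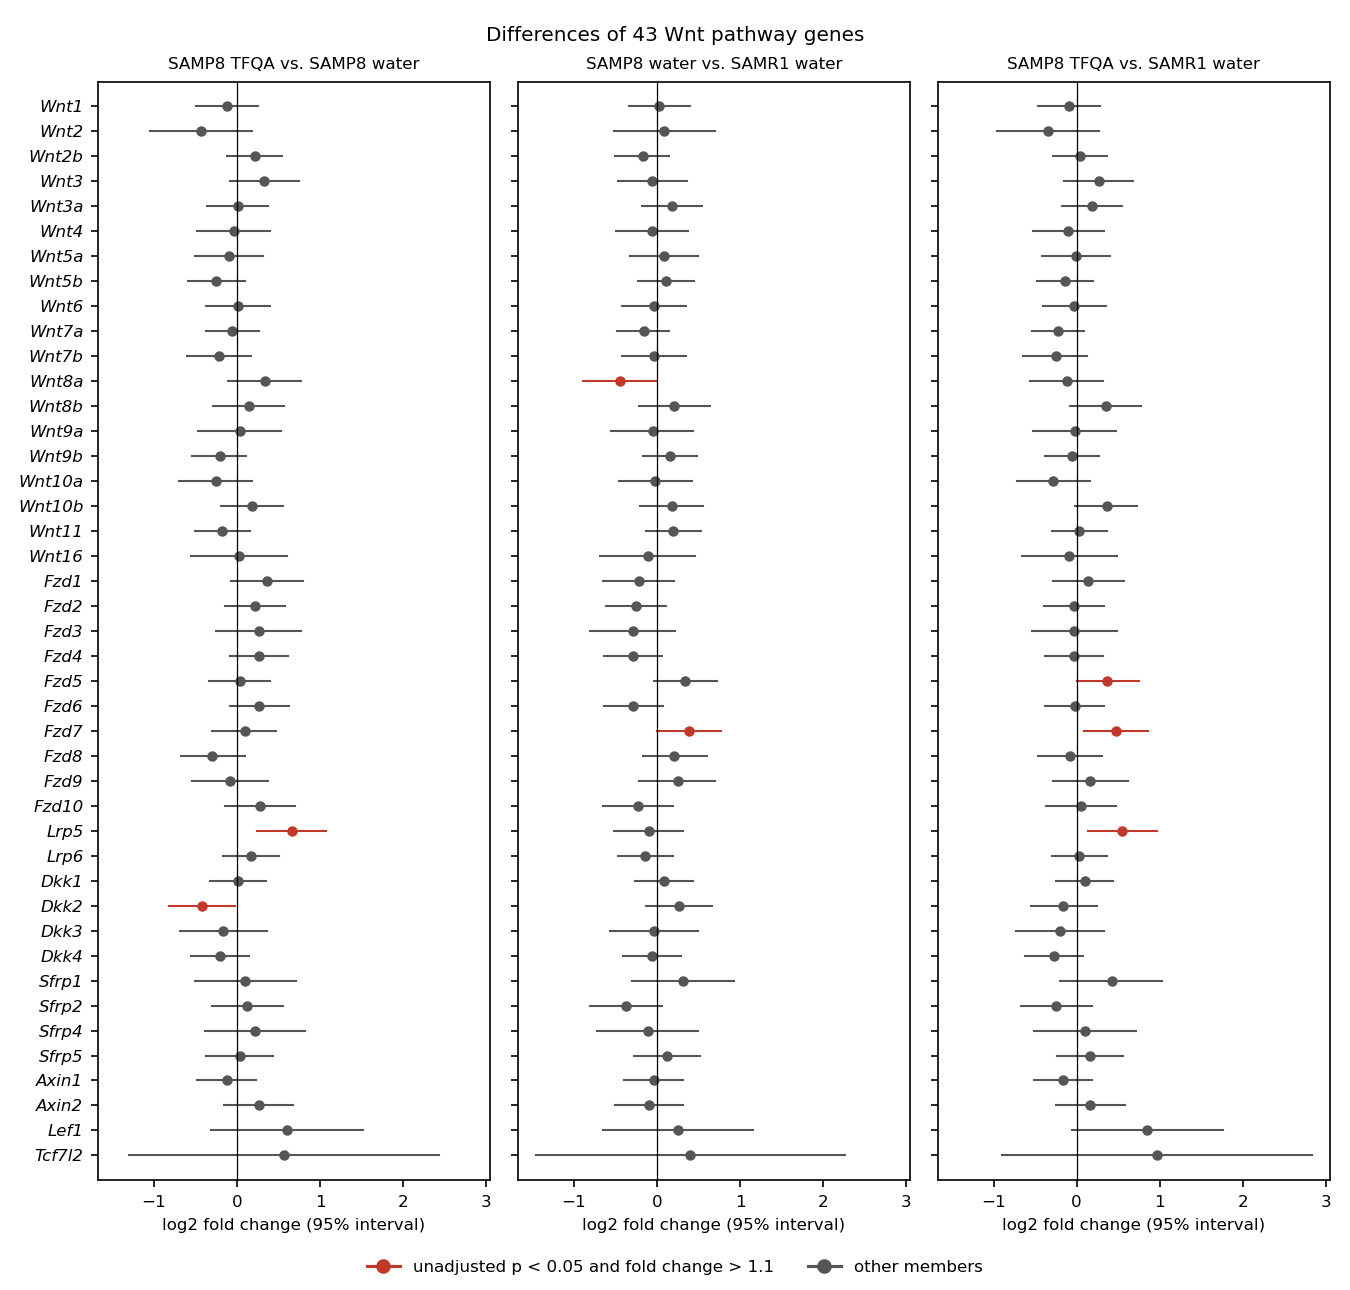
Log2 fold changes (points) with 95% intervals (lines) of the 43 genes in the 3 comparisons (columns). Red marks genes past the study's threshold, and the intervals of Tcf7l2 are by far the widest.

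SAMP8 water vs. SAMR1 water asked how the strains differed without treatment. Again 0 members passed an adjusted p of 0.05, against 0.509% of all transcripts. At the study's threshold 2 of 43 members passed, against 6.09% of all transcripts (3.4% higher and 2.7% lower), namely the receptor gene Fzd7, which was higher in SAMP8, and the ligand gene Wnt8a, which was lower. For 6 members the groups did not overlap, against 11.8% of all transcripts (5.77% higher and 6.04% lower in SAMP8 water). Fzd5 and Fzd7 were higher, and Wnt8a, Fzd2, Fzd4 and Fzd6 were lower. Altogether 19 members had a higher and 24 a lower mean in SAMP8, and their median log2 fold change was -0.04, against -0.01 over all transcripts. Of 14 markers of meningeal fibroblasts, 13 were higher in SAMP8 water and 11 of these passed the study's threshold, and their part in the members' values was not tested.

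Fzd7 (chr1:59482147-59486955), a receptor known from stem and progenitor cells, measured 7.27, 6.86 and 6.81 in SAMP8 TFQA arrays, 7.10, 6.73 and 6.85 in SAMP8 water arrays and 6.49, 6.66 and 6.37 in SAMR1 water arrays. All 6 SAMP8 arrays were above all 3 SAMR1 arrays. In SAMP8 water vs. SAMR1 water the log2 fold change of Fzd7 was 0.39 ± 0.18 (SE), with an unadjusted p of 0.049 and an adjusted p of 0.817 in limma. In SAMP8 TFQA vs. SAMR1 water it was 0.47, with an unadjusted p of 0.02, and the 2 comparisons share the SAMR1 arrays. Without SAMP8 water replicate 1 the first value became 0.28, without SAMR1 replicate 3 it was 0.32, and neither was past the threshold. In all, 3 of the 9 fits without 1 array kept the call.

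Fzd5 (chr1:64730558-64737750) showed the same order of groups, with 6.81, 7.17 and 6.79 in SAMP8 TFQA arrays, 7.14, 6.75 and 6.79 in SAMP8 water arrays and 6.47, 6.67 and 6.51 in SAMR1 water arrays. Its 3 SAMR1 arrays lay below all 6 SAMP8 arrays as well. The log2 fold change of Fzd5 was 0.34 ± 0.17 (SE) in SAMP8 water vs. SAMR1 water, with an unadjusted p of 0.0675, and 0.37 in SAMP8 TFQA vs. SAMR1 water, with an unadjusted p of 0.0495. The call against SAMR1 after TFQA remained in 4 of the 9 fits without 1 array, at 0.25 to 0.44, and that of Fzd7 in the same comparison in 7 of the 9, at 0.33 to 0.56. In contrast, Fzd2, Fzd4 and Fzd6 were lower in every SAMP8 water array than in every SAMR1 array, at log2 fold changes of -0.25, -0.29 and -0.29, and none of the 3 passed the study's threshold. After TFQA the same 3 genes had log2 fold changes of 0.22, 0.26 and 0.26 against SAMP8 water, which rest on the same SAMP8 water arrays, and of -0.03, -0.03 and -0.02 against SAMR1 water. Fzd4 is known as the receptor of Norrin in brain vessels.

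Wnt8a, a ligand best known from the early embryo, measured 3.95, 3.72 and 4.32 in SAMP8 TFQA arrays, 3.54, 3.72 and 3.75 in SAMP8 water arrays and 3.84, 4.04 and 4.47 in SAMR1 water arrays. The SAMP8 water arrays all lay below the SAMR1 arrays. Its log2 fold change in SAMP8 water vs. SAMR1 water was -0.45 ± 0.20 (SE), with an unadjusted p of 0.0474 in limma. This transcript is among the dimmest 40%, and without SAMR1 replicate 3 the value was -0.27, not past the threshold, while 3 of the 9 fits without 1 array kept the call. Wnt11 had the next smallest p of the ligands, with a log2 fold change of 0.20 ± 0.15 (SE). Among antagonists, Sfrp2 had a log2 fold change of -0.37 ± 0.20 (SE) and an unadjusted p of 0.0824, and Sfrp1 had 0.32 ± 0.28 (SE). For Sfrp1, SAMP8 water replicate 2 measured 7.16, against 6.09 and 6.01 in the other arrays of the group and 6.14, 6.26 and 5.91 in SAMR1 water arrays. That array also had the highest choroid plexus score, 0.75, and a thalamus and habenula score of 0.71. Over the 9 arrays, Sfrp1 correlated with these scores at Pearson's r of 0.48 and 0.667, in that order. The exact permutation p was 0.192 and 0.0497, and 0.826 for both after Benjamini-Hochberg adjustment over 215 relations. The part of such tissue in the value was not tested. Lrp5, Lrp6, Axin1 and Axin2 had log2 fold changes of -0.10, -0.14, -0.04 and -0.09 between the strains, with standard errors of 0.15 to 0.19.

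**Figure D3:**
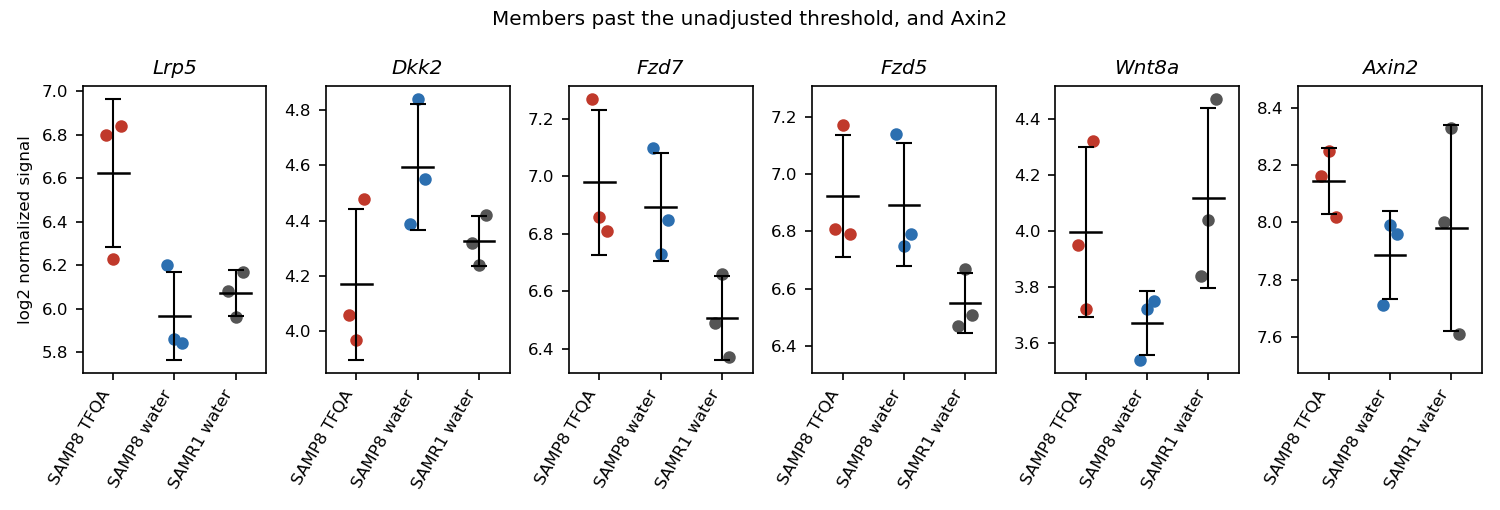
Log2 normalized signal of the 5 members past the study's threshold in any comparison, and of Axin2, on each array (points) with the group mean and SD (lines, n = 3 arrays). The y axes do not start at 0 and differ between genes. Lrp5 is higher in all 3 SAMP8 TFQA arrays than in the water arrays, whereas Fzd7 and Fzd5 are lower in SAMR1 water than in both SAMP8 groups.

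SAMP8 TFQA vs. SAMR1 water set the treated mice against the normal-aging controls. No member passed an adjusted p of 0.05, against 0.576% of all transcripts. At the study's threshold 3 of 43 members passed, against 8.06% of all transcripts (4.07% higher and 3.99% lower). These were Lrp5, Fzd7 and Fzd5, and all 3 were higher in SAMP8 TFQA. For Lrp5 the log2 fold change was 0.55 ± 0.19 (SE), with an unadjusted p of 0.0134 and an adjusted p of 0.466, and it was 0.46 and 0.45 without TFQA replicates 1 and 3, no longer past the threshold. For 6 members the groups did not overlap, against 12.3% of all transcripts (5.97% higher and 6.32% lower in SAMP8 TFQA). Besides these 3 they were Wnt7a, Dkk4 and Axin1, all lower in SAMP8 TFQA at log2 fold changes of -0.22, -0.27 and -0.16. The median log2 fold change of the members was -0.02, against -0.01 over all transcripts.

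The spread of most members over the arrays was small. The SD over all 9 arrays was under 0.3 for 33 of the 43 members, with a median of 0.23. Tcf7l2 stood apart at 1.34, and Lef1 followed at 0.70. The 95% intervals of the log2 fold changes lay within -1 to 1 for 39 members in SAMP8 TFQA vs. SAMP8 water, for 41 between the strains given water and for 40 in SAMP8 TFQA vs. SAMR1 water. Tcf7l2 and Lef1 were outside that range in each of the 3.

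Tcf7l2 (chr19:55741797-55933659) encodes a DNA-binding partner of β-catenin. Its log2 signal was 12.26, 10.76 and 10.81 in SAMP8 TFQA arrays, 11.22, 12.31 and 8.61 in SAMP8 water arrays and 9.11, 11.92 and 9.90 in SAMR1 water arrays. The range within the SAMP8 water group alone covered that of all the other arrays, and the 3 groups overlapped. Its log2 fold change was 0.56 ± 0.86 (SE) in SAMP8 TFQA vs. SAMP8 water, 0.40 between the strains given water and 0.97 in SAMP8 TFQA vs. SAMR1 water, with intervals that all include 0. Lef1 (chr3:131110297-131224357), a second member of the TCF/LEF family, measured 7.16, 5.93 and 5.87 in SAMP8 TFQA arrays, 5.87, 6.30 and 4.99 in SAMP8 water arrays and 5.02, 6.21 and 5.17 in SAMR1 water arrays. The array with the highest value in each group was the same for both genes. Lef1 had log2 fold changes of 0.60 ± 0.42 (SE), 0.25 and 0.85 in the 3 comparisons in that order, and the last had an unadjusted p of 0.0627. When single arrays were left out, Lef1 ranged over 0.18 to 0.89 in SAMP8 TFQA vs. SAMP8 water, the lowest without TFQA replicate 1. In SAMP8 TFQA vs. SAMR1 water it ranged over 0.43 to 1.22, and 4 of the 9 fits were past the study's threshold, those without TFQA replicates 2 and 3, SAMR1 water replicate 2 and SAMP8 water replicate 3.

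Both genes varied with markers of thalamus and habenula. The score of the 10 marker transcripts was 0.61, -0.14 and -0.08 in SAMP8 TFQA arrays, -0.20, 0.71 and -0.45 in SAMP8 water arrays and -0.96, 0.93 and -0.43 in SAMR1 water arrays. In each group the array of highest score was also the one highest in Tcf7l2 and Lef1, and 8 or 9 of the 10 markers peaked there. The marker Zic1 measured 11.02, 9.65 and 10.03 in SAMP8 TFQA arrays, 9.21, 10.77 and 10.16 in SAMP8 water arrays and 6.77, 11.44 and 8.36 in SAMR1 water arrays. Over the 9 arrays Pearson's r between Tcf7l2 and the score was 0.887 (exact permutation p = 0.00227) and Spearman's rho was 0.883 (exact permutation p = 0.00308). For Lef1 they were 0.831 (exact permutation p = 0.00417) and 0.887 (exact permutation p = 0.00247). Without the 2 arrays farthest from the median score r was 0.865 for Tcf7l2 and 0.936 for Lef1, within the 6 arrays of lowest score it was 0.747 and 0.824, and with group means removed it was 0.888 and 0.885. These are 2 of 215 relations computed between the 43 members and 5 marker scores, and after Benjamini-Hochberg adjustment their p was 0.329 for Pearson's r and 0.331 for Spearman's rho, so that 0 of the 215 passed. Unadjusted, 6 members passed 0.05 with the thalamus and habenula score, 2 each with those of oligodendrocytes and choroid plexus, 1 with striatum and 0 with meningeal fibroblasts. The choroid plexus score was highest in the same array of each group. With group means removed, r of Tcf7l2 and Lef1 with it was 0.841 and 0.862. It was 0.767 and 0.734 for oligodendrocytes, 0.557 and 0.455 for meningeal fibroblasts and 0.0932 and -0.0433 for striatum. Wnt2 correlated with the oligodendrocyte score at 0.814 (exact permutation p = 0.0046, or 0.329 adjusted). The part of each tissue was not tested.

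**Figure D4:**
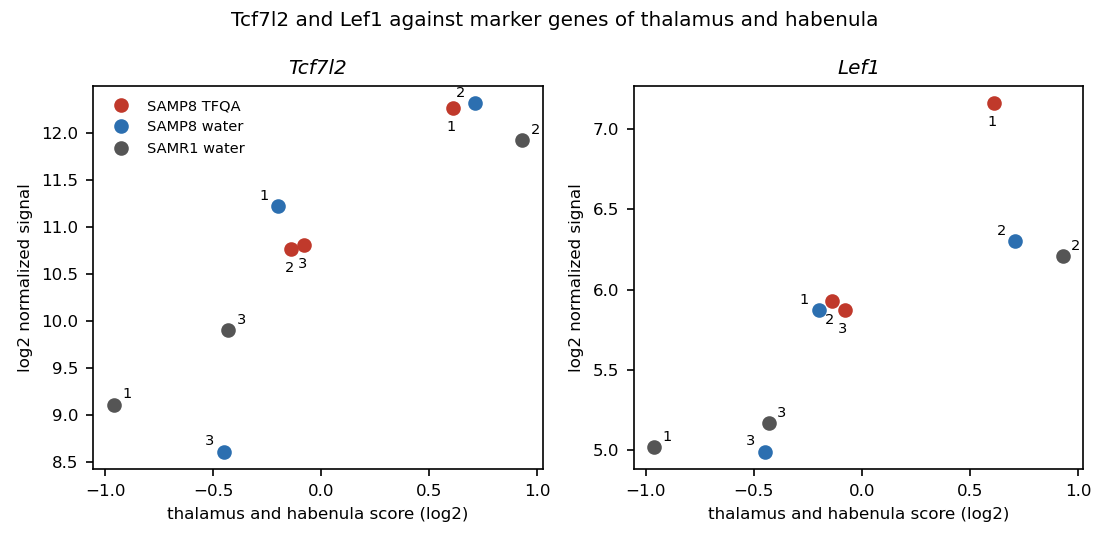
Log2 normalized signal of Tcf7l2 and Lef1 (y axes) against the thalamus and habenula marker score (x axes, mean log2 deviation of 10 marker transcripts) on the 9 arrays, colored by group and numbered by replicate. The 3 arrays with scores of 0.61 to 0.93, 1 from each group, have the highest Tcf7l2 and Lef1 signals.

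With the thalamus and habenula score as a covariate, the log2 fold change of Tcf7l2 was 0.36 in SAMP8 TFQA vs. SAMP8 water. It was 0.08 between the strains given water and 0.44 in SAMP8 TFQA vs. SAMR1 water. For Lef1 the values were 0.51, 0.10 and 0.61 in that order. The last value of Lef1 had an unadjusted p of 0.0285. Without the 3 arrays of highest score, the log2 fold change of Lef1 in SAMP8 TFQA vs. SAMR1 water was 0.81, with an unadjusted p of 0.0207, from 2 arrays per group. Lrp5 after TFQA stayed at 0.66 with the covariate, with an unadjusted p of 0.00695, and Dkk2 was at -0.43.

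Further genes of the pathway were read from 7 lists of 112 genes, of which 105 were measured. After TFQA 6 of the 105 passed the study's threshold, or 5.71%, against the 7.12% of all transcripts. Lower after TFQA were Gpc4, Igfbp4, Sostdc1 and Dact1, and higher were the target genes Sp5 and Abcb1a. Over the 105 genes 43 had a higher and 62 a lower mean, and their median log2 fold change was -0.03. The genes of ligand processing and secretion were mostly lower, 8 of 9, with Gpc4 alone past the threshold. Of the 19 further inhibitors 11 were lower, 3 of them past it. The 20 measured genes of Dishevelled and the destruction complex (9 higher), the 19 of the nuclear complex (6 higher), the 19 of alternative receptors and planar polarity (7 higher) and the 8 of R-spondins, Lgr receptors and receptor ubiquitin ligases (5 higher) had 0 past the threshold. Among 16 reported target genes 9 were higher, 2 of them past it. Igfbp4 encodes a secreted IGF-binding protein that also binds Frizzled and Lrp6. It measured 10.06, 9.90 and 9.84 in SAMP8 TFQA arrays, against 10.76, 10.55 and 10.34 in SAMP8 water arrays, with no overlap, and its log2 fold change was -0.62 ± 0.16 (SE), with an unadjusted p of 0.00262 and an adjusted p of 0.561. Gpc4, a cell-surface glypican that binds Wnts, measured 8.43, 7.89 and 8.54 in SAMP8 TFQA arrays, against 8.85, 8.90 and 9.0 in SAMP8 water arrays, again with no overlap. Its log2 fold change of -0.63 was -0.43 without TFQA replicate 2, the array of high striatal score. Both genes kept an unadjusted p under 0.05 in 9 of the 9 fits without 1 array.

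Sostdc1, an antagonist that binds Lrp6, is also a listed choroid plexus marker. It measured 7.49, 7.13 and 7.61 in SAMP8 TFQA arrays, 8.00, 8.41 and 7.87 in SAMP8 water arrays and 7.17, 7.54 and 7.79 in SAMR1 water arrays. SAMP8 water was above both other groups in every array. The log2 fold change of Sostdc1 was -0.68 after TFQA and 0.59 in SAMP8 water vs. SAMR1 water, 2 comparisons that share the SAMP8 water arrays. The 11 choroid plexus markers had a median log2 fold change of -0.56 after TFQA, with 0 of 11 higher, and of 0.76 between the strains, with 10 of 11 higher. Their part in the Sostdc1 values was not tested. Dact1, a Dishevelled antagonist among the dimmest 40%, had -0.38 after TFQA and lost the call in 5 of the 9 fits without 1 array. Sp5, at 0.40, lost it in 8 of the 9 and is as dim.

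Between the strains, 7 of the 105 genes passed the study's threshold, or 6.67%, against 6.09% of all transcripts, and 2 of them passed an adjusted p of 0.05, against 0.509% of all transcripts. Csnk1a1 (chr18:61554236-61590320) encodes casein kinase 1α, which adds the first phosphate by which the Axin complex marks β-catenin. Its log2 signal was 15.01, 14.80 and 14.97 in SAMP8 TFQA arrays, 14.98, 14.99 and 15.14 in SAMP8 water arrays and 16.27, 16.31 and 16.22 in SAMR1 water arrays. The strains were thus far apart, and the 2 SAMP8 groups overlapped. Csnk1a1 fell in SAMP8 water vs. SAMR1 water, with a log2 fold change of -1.23 ± 0.14 (SE), a fold change of 0.426 and an adjusted p of 0.000819 in limma, and in SAMP8 TFQA vs. SAMR1 water, with -1.34 and an adjusted p of 0.000332. Abcb1a, an efflux pump of brain vessels listed as a reported target of the pathway, rose in SAMP8 water vs. SAMR1 water by 2.86 on the log2 scale, with an adjusted p of 5.96e-05, and its log2 fold change after TFQA was 0.62, with an unadjusted p of 0.0275. That call after TFQA was lost in 4 of the 9 fits without 1 array, at 0.52 to 0.59, and without the 3 arrays of highest thalamus and habenula score, at 0.49 with an unadjusted p of 0.192. Abcb1a measured 10.59, 10.10 and 10.51 in SAMP8 TFQA arrays, 9.72, 9.71 and 9.91 in SAMP8 water arrays and 7.48, 6.90 and 6.37 in SAMR1 water arrays. Invs, a ciliary protein that turns signaling from β-catenin toward planar polarity, measured 9.48, 9.63 and 10.27 in SAMP8 TFQA arrays, 10.09, 9.56 and 9.48 in SAMP8 water arrays and 8.89, 9.05 and 8.67 in SAMR1 water arrays. Its log2 fold change between the strains was 0.84 ± 0.23 (SE), with an unadjusted p of 0.00347 and an adjusted p of 0.283. The other genes past the study's threshold between the strains were Sostdc1 and Apcdd1, both higher in SAMP8 water, and Apc2 and Celsr3, both lower. Their log2 fold changes were 0.54 for Apcdd1, a membrane-bound inhibitor, -0.39 for Apc2, a relative of the destruction complex protein Apc, and -0.43 for Celsr3, a cadherin of the planar polarity pathway. When single arrays were left out, Apcdd1 kept the call in 2 of the 9 fits (0.25 without SAMR1 water replicate 3 to 0.77), Apc2 in 4 (-0.56 to -0.27), Celsr3 in 5 (-0.57 to -0.33) and Sostdc1 in 7 (0.43 to 0.74). Apcdd1 also lost it under 6 other settings, the centred and quantile scalings among them. In SAMP8 TFQA vs. SAMR1 water 10 of the 105 genes passed the study's threshold, or 9.52%, against 8.06% of all transcripts. Of these 4 were higher and 6 lower, against 4.07% and 3.99% of all transcripts, and Csnk1a1 and Abcb1a again passed an adjusted p of 0.05.

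**Figure D5:**
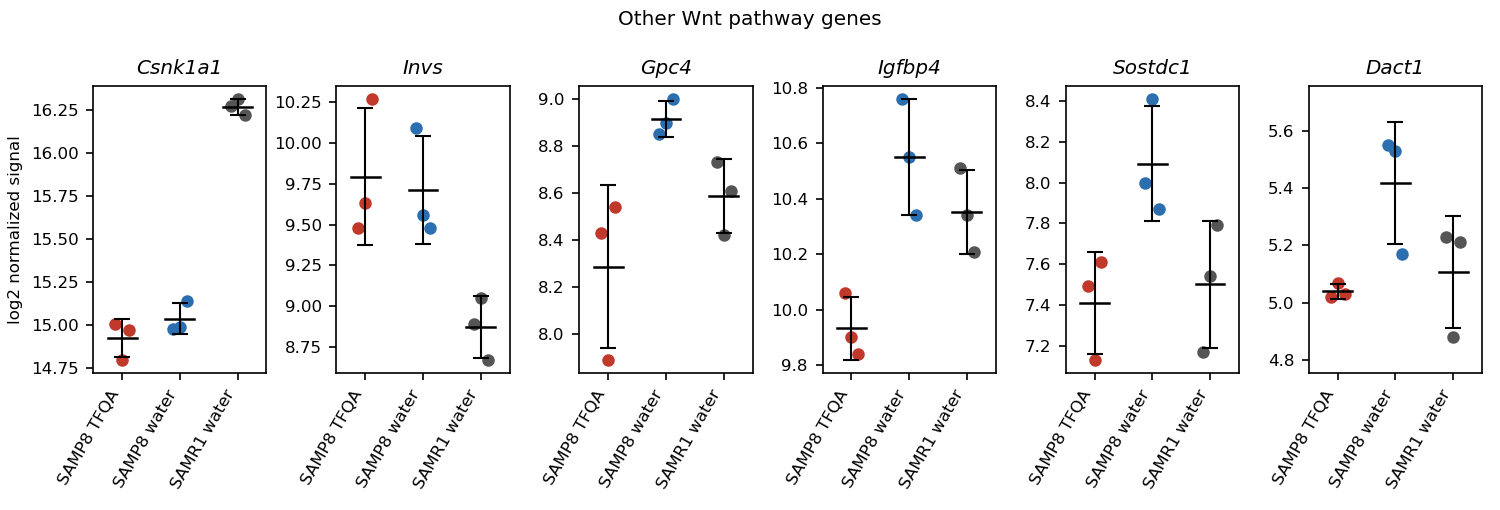
Log2 normalized signal of 6 further pathway genes on each array (points) with the group mean and SD (lines, n = 3 arrays). The y axes do not start at 0 and differ between genes. Csnk1a1 separates SAMR1 water from both SAMP8 groups, whereas Gpc4, Igfbp4 and Sostdc1 are lower in SAMP8 TFQA than in SAMP8 water.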

How the data were processed

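Total RNA of 9 samples was hybridized to Clariom S Mouse arrays. The authors used SST-RMA for normalization per the study's methods, while the labels name RMA and the build mm10, and the RNA input also differs between these sources. The deposited values are log2 signals, 1 per transcript and array, with array medians of 6.76 to 6.81. Of 22206 transcripts, 19572 carry 1 gene symbol. Gene positions are those of GRCm38.p6. The 9 arrays entered a single model with a mean for each group (limma 3.58.1 under R 4.3.3, default eBayes). Benjamini-Hochberg adjustment ran over the whole table. No filter was applied. The number of arrays limits the precision, with standard errors of 0.15 to 0.86 for the members. In simulated data for SAMP8 TFQA vs. SAMP8 water over 22206 transcripts, 50 of 100 log2 differences of 1 and 95 of 100 differences of 2 were recovered at an adjusted p under 0.05.

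The members, lists and marker lists were chosen with earlier results of these data known. Named are members past the study's threshold, the 2 of each role with the smallest p in SAMP8 TFQA vs. SAMP8 water and in SAMP8 water vs. SAMR1 water, the single genes of the rule, and genes of the further lists past a threshold. Alternatives were other scalings, a filter on dim transcripts, other variance settings, 2 groups at a time, a replicate block, and each array left out. The thalamus and habenula score as a covariate and the removal of the 3 arrays highest in it were chosen after seeing the data.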

Additional observations from a re-analysis of the deposited data

How the results depend on the processing

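With 3 arrays per group, only large differences could pass the adjusted threshold, and 0 members passed it in any comparison under every alternative run. Counts at the study's threshold are small and moved. For SAMP8 TFQA vs. SAMP8 water the count of 2 became 1 without the dimmest 40%, with trend and robust variances and with only the 2 groups, and 0 without the 3 arrays highest in thalamus and habenula markers. For SAMP8 water vs. SAMR1 water the count of 2 became 1 with centred arrays, with quantile normalization and without the dimmest 40%, and 0 with trend and robust variances, with one-way ANOVA and with the marker score as a covariate. For SAMP8 TFQA vs. SAMR1 water it was 3, with 1 to 5 when single arrays were left out, against 1 to 3 and 0 to 2 in the other comparisons in the order above. The further pathway genes gave 3 to 8, 4 to 7 and 8 to 15.

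The median log2 fold change of the members, 0.03 in SAMP8 TFQA vs. SAMP8 water, was 0.05 with centred arrays, 0.06 with quantile normalization and 0.11 without the dimmest 40%. In SAMP8 water vs. SAMR1 water it was -0.06 with centred arrays, 0 with the covariate and 0.01 without the 3 arrays, and in SAMP8 TFQA vs. SAMR1 water it was 0.02 without the 3 arrays. Leaving out single arrays gave 0.01 to 0.05, -0.04 to 0.03 and -0.02 to 0.05. The cause of these shifts was not tested.

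Some values not past any threshold changed sign. Without the 3 arrays these were Fzd7 (-0.14) and Apcdd1 (0.12) in SAMP8 TFQA vs. SAMP8 water, and Axin1 (0.01) and Axin2 (0.03) in SAMP8 water vs. SAMR1 water. With the covariate Lrp6 was at -0.01 in SAMP8 TFQA vs. SAMR1 water. Fits without single arrays were tabulated for the genes past a threshold and the fixed pathway genes, not for the other members. Among these genes, the ranges that crossed 0 in SAMP8 TFQA vs. SAMP8 water were -0.49 to 1.36 for Tcf7l2, -0.09 to 0.15 for Fzd5, -0.06 to 0.19 for Fzd7, -0.19 to 0.02 for Axin1, -0.04 to 0.25 for Apc2, -0.14 to 0.13 for Apcdd1 and -0.16 to 0.27 for Invs. Between the strains given water the ranges were -0.39 to 1.45 for Tcf7l2, -0.04 to 0.62 for Lef1, -0.18 to 0.03 for Axin1 and -0.28 to 0.08 for Axin2. In SAMP8 TFQA vs. SAMR1 water they were -0.05 to 0.12 for Lrp6, -0.02 to 0.34 for Axin2, -0.28 to 0.06 for Wnt8a and -0.26 to 0.05 for Sostdc1.

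Deviations of same-numbered arrays from their group means correlated at 6.15e-05 to 0.153, and 5 of 9 arrays correlated best with their own number. The labels give only the number, and whether it marks a batch or a pairing cannot be told from these values. With the replicate block the counts of members past the study's threshold were 2, 2 and 3, Dact1 after TFQA (-0.38) and Fzd5 in SAMP8 TFQA vs. SAMR1 water (0.37) lost the call, and Lef1 in SAMP8 TFQA vs. SAMR1 water (0.85, unadjusted p of 0.0398) gained it.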
